A study of Mus musculus with 6 samples.

Results

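Transcripts of 10 cadherin genes were followed in the cerebral cortex of C57BL/6 mouse embryos at embryonic day 18. The genes were taken by name from the GENCODE M21 annotation as Cdh1, Cdh2, Cdh4, Cdh6, Cdh8, Cdh9, Cdh10, Cdh11, Cdh12 and Cdh13, and each matched 1 row of the 55401 rows of deposited gene counts. Bulk RNA sequencing compared 3 libraries from Csmd3-/- embryos with 3 libraries from wild-type (WT) embryos, and both genotypes came from matings of heterozygous parents. The labels number the libraries of a genotype 1 to 3 without saying that each came from a separate embryo, so p-values measure the spread between these libraries. All 10 genes passed the filter on low counts that left 19844 genes to be tested. Cdh1 passed it through its Csmd3-/- counts, since it was almost absent from WT.

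Classical cadherins are calcium-dependent adhesion proteins that span the membrane. Their outer domains bind mostly to the same or a closely related cadherin on the neighbouring cell, and their inner tail holds p120-catenin and beta-catenin, which connects through alpha-catenin to actin. Type I members such as E-cadherin (Cdh1) and N-cadherin (Cdh2) form strong junctions, and N-cadherin holds radial glia together at the ventricular surface of the developing cortex. Type II members are expressed in patterns that differ between cortical areas, layers and circuits. The label fits 9 of the 10 genes: Cdh13 encodes T-cadherin, which is held by a lipid (GPI) anchor, has no inner tail and is not a classical cadherin in the strict sense.

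Library totals were 54244288 to 68269607 deposited counts, and a single sequenced fragment adds about 4 of them. Csmd3 itself, whose large product spans the membrane and carries CUB and Sushi domains, had 675, 653 and 543 counts in Csmd3-/- libraries 1 to 3, against 992, 765 and 867 in WT libraries 1 to 3. It was lower but present (-0.59 on the log2 scale, SE 0.13, adjusted p = 0.0233). Which part of the gene was removed is not known here, and the counts cover the whole gene, so this is a weak check of the labels. All 8 markers of cortical identity, such as Emx1 and Neurod6, were present, with a summed level of 3335 to 3858 CPM (counts relative to the TMM-scaled library size) in Csmd3-/- and 2864 to 3453 CPM in WT, and 0 of 8 passed the test (0 at an unadjusted p under 0.05 by edgeR, 0 by DESeq2). The Csmd3-/- libraries also held more transcripts of the brain coverings and, in part, of choroid plexus. At an adjusted p under 0.05 by edgeR, 5.21% of all tested genes were higher and 2.53% lower, shares to set beside the marker counts here. The 14 markers of arachnoid and meningeal fibroblasts summed to 586 to 835 CPM, against 21.8 to 29.7 CPM in WT, and all 14 rose. Some of them, such as Lum (19, 0 and 8 WT counts) and Slc6a13 (4, 4 and 12), passed the filter on low counts through their Csmd3-/- counts. Ttr, the main transcript of choroid plexus epithelium, had 131, 2262 and 25057 counts in Csmd3-/- libraries 1, 2 and 3, against 4, 0 and 0 in WT libraries 1, 2 and 3. Of the 10 microglia and macrophage markers 8 rose, with a sum of 110 to 138 CPM in Csmd3-/- and 30.3 to 34.1 CPM in WT. Of the 8 pericyte and smooth muscle markers 5 rose (6 by DESeq2), with a sum of 198 to 236 CPM in Csmd3-/- and 128 to 145 CPM in WT. Of the 7 erythroid genes 0 passed by edgeR or by DESeq2, and 1 was at an unadjusted p under 0.05 (1886 to 2203 CPM in Csmd3-/- and 1519 to 2106 CPM in WT).

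Of the 10 cadherins, Cdh1 rose and the other 9 did not pass the test. By the quasi-likelihood test of edgeR with Benjamini-Hochberg adjustment over all genes, 1 of 10 was higher and 0 lower at an adjusted p under 0.05, where 5.21% of all tested genes were higher and 2.53% lower (7.74% either way). At an unadjusted p under 0.05, 1 of the other 9, Cdh9, was lower, as were 9.71% of all tested genes. DESeq2 also called Cdh1 and no other member. The log2 fold changes of the 9 lay between -0.52 and 0.17, with a median of 0.013, and the median of all tested genes was 0.0020. Their 95% intervals together reached down to -1.01 and up to 0.38. The groups did not overlap for 4 of 10 members, against 29.1% of all tested genes. Cdh1 stood apart on the higher side, as did 15.6% of all tested genes, and Cdh6, Cdh9 and Cdh10 on the lower side, as did 13.5%.

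**Figure D1:**
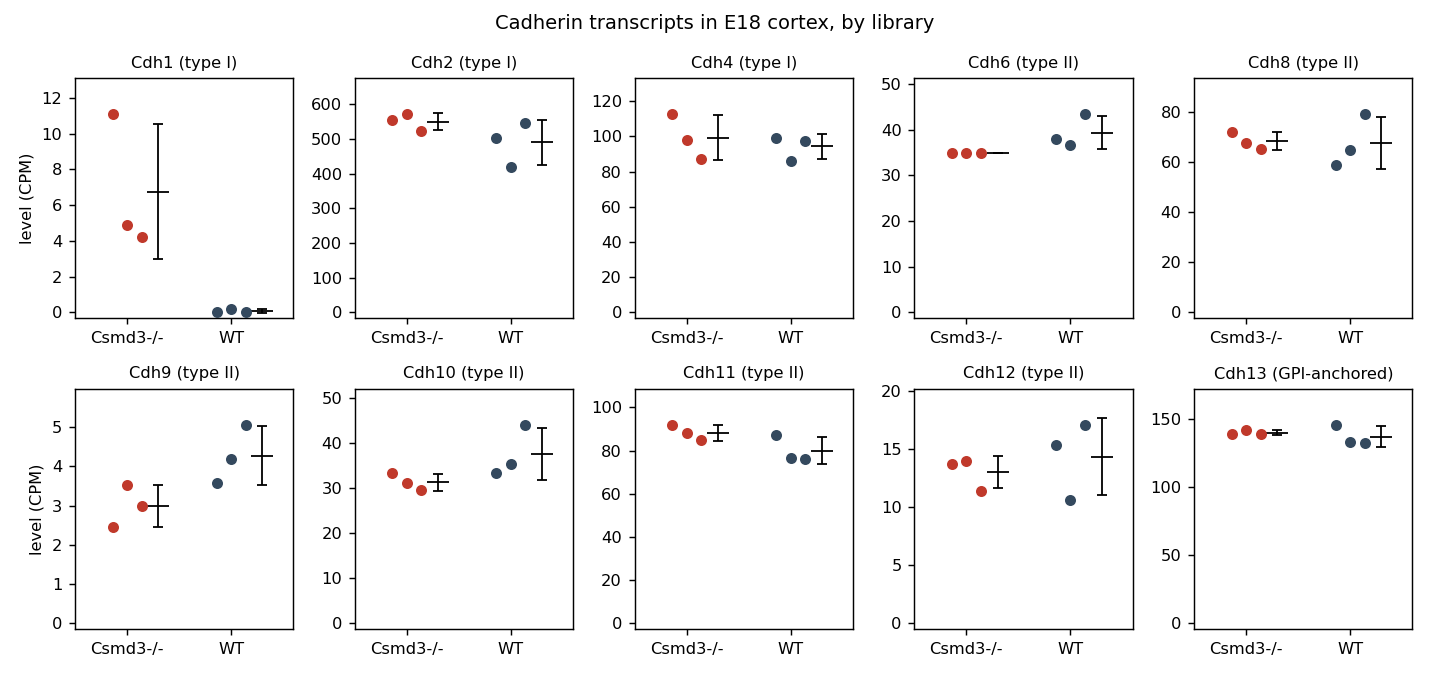
Level of each cadherin transcript in CPM (counts relative to the TMM-scaled library size, linear axis from 0) in 3 Csmd3-/- libraries (red) and 3 WT libraries (dark), with mean and SD beside the points. Cdh1 stands at 4.24 to 11.1 CPM in Csmd3-/- and at 0 to 0.172 CPM in WT, while the groups overlap for 6 of the other 9 members.

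Set per exon length, N-cadherin made up more than all the others together. Levels here are TPM, the count per kilobase of merged exons, scaled to the same total over all genes in each library, so that genes can be compared. Cdh2 was at 246.9 ± 9.81 TPM in Csmd3-/- and 209.3 ± 32.8 TPM in WT (SD, n = 3 each), or 54.8% ± 1.23 of the summed level of the 10 in Csmd3-/- and 52.6% ± 1.96 in WT. Ordered by their level in WT, Cdh4 came next with 49.5 ± 6.20 TPM in Csmd3-/- and 44.7 ± 4.56 TPM in WT, then Cdh13 with 45.1 ± 0.464 TPM in Csmd3-/- and 41.9 ± 2.97 TPM in WT. Cdh11 (35.9 ± 1.32 TPM in Csmd3-/- and 30.9 ± 2.92 TPM in WT) and Cdh8 (31.9 ± 1.56 TPM in Csmd3-/- and 30.02 ± 4.97 TPM in WT) were the most abundant type II genes. Lower still were Cdh6 (14.01 ± 0.106 TPM in Csmd3-/- and 15.02 ± 1.67 TPM in WT), Cdh10 (11.3 ± 0.641 TPM in Csmd3-/- and 12.9 ± 2.14 TPM in WT), Cdh12 (7.45 ± 0.765 TPM in Csmd3-/- and 7.84 ± 1.998 TPM in WT) and Cdh9 (3.06 ± 0.538 TPM in Csmd3-/- and 4.15 ± 0.766 TPM in WT). Cdh1 was the lowest in WT, with 5.33 ± 2.98 TPM in Csmd3-/- and 0.0418 ± 0.0725 TPM in WT. Neighbours in this order whose WT libraries overlapped were Cdh4 and Cdh13, Cdh11 and Cdh8, and Cdh6 and Cdh10. In Csmd3-/- libraries Cdh4 and Cdh13 overlapped, and so did Cdh9 and Cdh1.

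**Figure D2:**
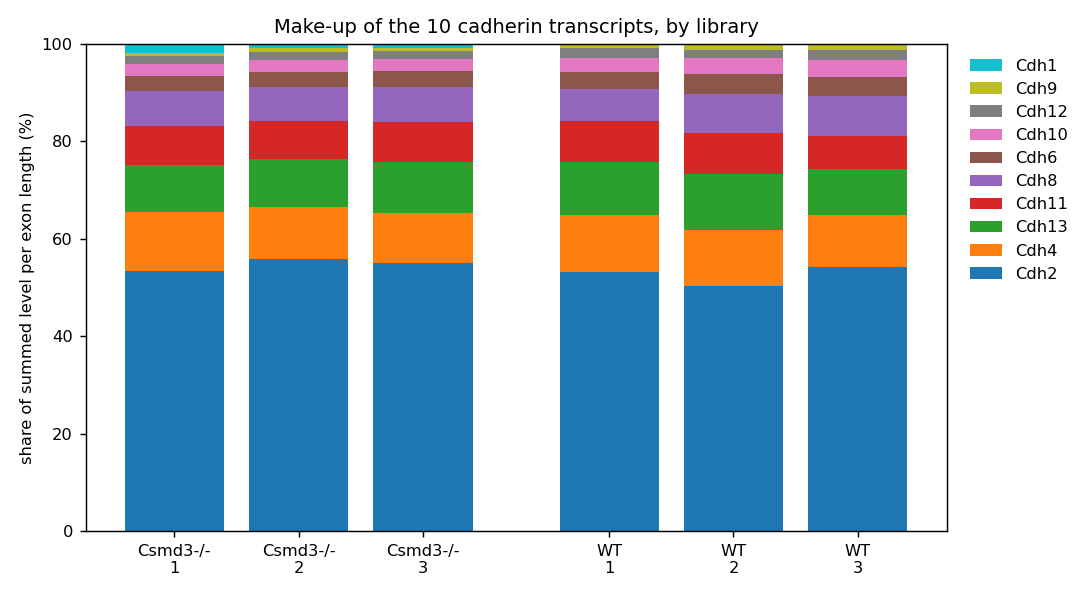
Share (%) of each cadherin in the summed level per exon length of the 10 genes, one bar per library, Csmd3-/- on the left and WT on the right. Cdh2 takes 50.4% to 55.9% of every bar, and Cdh1 takes 0.79% to 1.88% in Csmd3-/- and at most 0.0365% in WT.

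Cdh1 (ENSMUSG00000000303.12, chromosome 8, 106603351 to 106670246, plus strand, mm10) encodes E-cadherin, the junction protein of epithelia, which in the brain coverings is known from the arachnoid barrier. It had 762, 309 and 235 deposited counts in Csmd3-/- libraries 1, 2 and 3, against 0, 10 and 0 in WT libraries 1, 2 and 3. Every Csmd3-/- library lay far above every WT library, and Csmd3-/- library 1 was more than double either of the others. The level was 6.74 ± 3.78 CPM in Csmd3-/- and 0.0574 ± 0.0995 CPM in WT (SD, n = 3 each). WT held 2.5 fragments in all, and the fold was 122 (approximate 95% interval 37.8 to 737, binomial on counts divided by 4, counting error only). The fitted log2 fold change of 6.83 (SE 1.06, adjusted p = 0.0206) rests on those few WT counts and on the small constant edgeR adds. It was 11.68 without WT library 2, the only WT library with counts. The call was lost without WT library 1 (adjusted p = 0.0629), Csmd3-/- library 2 (0.0675) or Csmd3-/- library 3 (0.0558), while the log2 value stayed at 6.24 or above. It was also lost when genes with low counts were kept in the test (adjusted p = 0.0504).

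The marker lists that moved with Cdh1 did so unequally between libraries. The summed arachnoid and meningeal markers were at 835, 586 and 709 CPM in Csmd3-/- libraries 1, 2 and 3, where Cdh1 was at 11.1, 4.88 and 4.24 CPM. Both were highest in library 1, but libraries 2 and 3 stood in opposite order. The 10 choroid plexus markers summed to 11.1, 47.2 and 494 CPM in those libraries, against 1.81 to 2.61 CPM in WT. Ttr alone gave 452 CPM of the sum in Csmd3-/- library 3. In Csmd3-/- library 1, Aqp1 gave 6.80 CPM and Ttr 1.91 CPM. Of the 6 that could be tested, 1, Aqp1, rose (3 by DESeq2), and Ttr did not pass by edgeR (adjusted p = 0.148). Over all tested genes 5.21% were higher and 2.53% lower by edgeR, shares to set beside the epithelial list below too. Folr1 of that list, too low in most libraries to be tested, had 0, 40 and 242 counts in Csmd3-/- and 0 in every WT library. Cdh1 was highest in Csmd3-/- library 1, where the choroid plexus sum was lowest. The sums of the endothelial, pericyte and smooth muscle, and microglia and macrophage markers were highest in Csmd3-/- library 3, as was that of choroid plexus. A list of 11 general epithelial genes (Epcam, the splicing factors Esrp1 and Esrp2, Grhl1, Grhl2, Ovol1, the keratins Krt8, Krt18 and Krt19, and the desmosome genes Dsp and Pkp2) summed to 2.33 to 4.6 CPM in Csmd3-/- and 2.08 to 3.37 CPM in WT. Of its 5 tested members 0 passed by edgeR (0 at an unadjusted p under 0.05, 0 by DESeq2), with a median log2 fold change of 0.074. The other 6 had too few counts for the test, and they did not move alike. Krt18 had 0, 8 and 64 counts in Csmd3-/- libraries 1, 2 and 3 and 0 in every WT library, and Krt19 had 28, 15 and 0 in Csmd3-/- libraries 1, 2 and 3 and 0 in every WT library. Krt8 had 0, 8 and 52 counts in Csmd3-/- and 0, 0 and 8 in WT (fold 7.003, 95% interval 1.63 to 63.1, counting error only). Krt8 and Krt18 were at 0 in Csmd3-/- library 1, where Cdh1 was highest, and Krt19 was at 0 in Csmd3-/- library 3, where Cdh1 was lowest. Esrp1 was at 0 in all Csmd3-/- libraries and at 9, 0 and 0 counts in WT. The part of these cell types in the Cdh1 result was not tested.

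**Figure D3:**
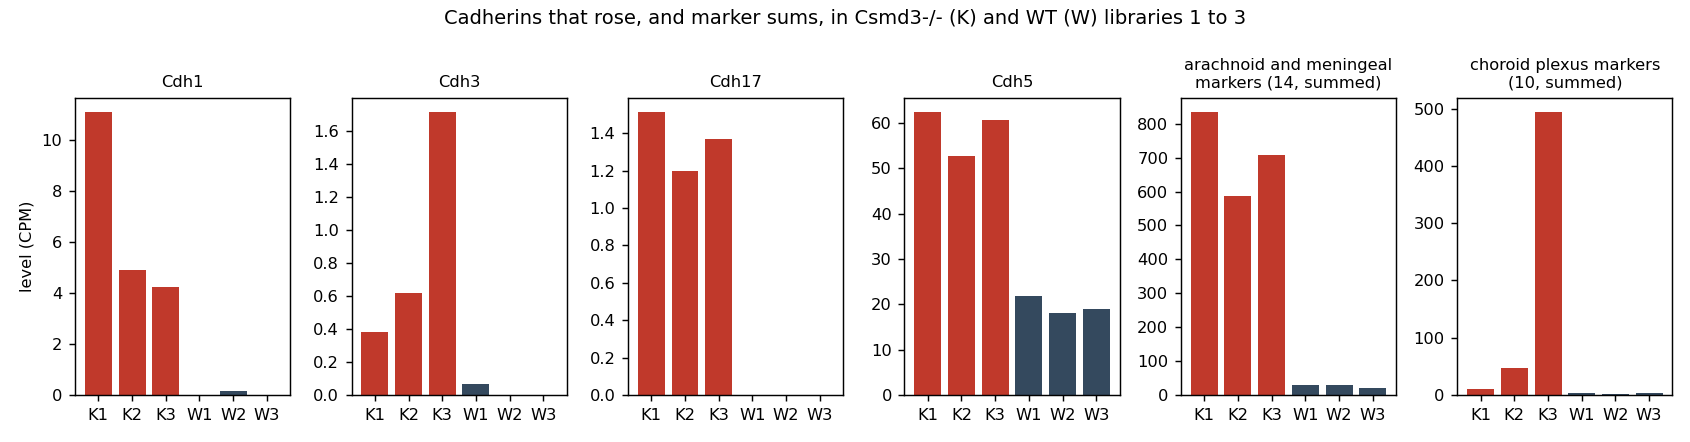
Level in CPM (bars from 0, one bar per library) of Cdh1, Cdh3, Cdh17 and Cdh5 and the summed level of 14 arachnoid and meningeal and 10 choroid plexus markers, in Csmd3-/- libraries K1 to K3 (red) and WT libraries W1 to W3 (dark). Cdh1 is highest in K1, as is the meningeal sum of 835 CPM, whereas Cdh3 and the choroid plexus sum of 494 CPM are highest in K3.

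The 2 other type I genes did not pass. Cdh2 (chromosome 18, 16588877 to 16809246, minus strand) had 556, 572 and 522 CPM in Csmd3-/- libraries 1, 2 and 3, against 504, 419 and 547 CPM in WT libraries 1, 2 and 3. WT library 3 lay within the Csmd3-/- range, so the groups overlapped. Cdh2 was at a log2 fold change of 0.17 (SE 0.096, adjusted p = 0.36), with a 95% interval of -0.049 to 0.38. On the linear scale the interval ran from 0.967 to 1.304 times the WT level. Cdh4, which encodes R-cadherin, named for the retina (chromosome 2, 179442431 to 179899373, plus strand), had 113, 97.7 and 87.2 CPM in Csmd3-/- and 99.3, 86.0 and 97.5 CPM in WT. The ranges lay over each other (log2 fold change 0.073, 95% interval -0.16 to 0.30, adjusted p = 0.748). The markers of radial glia, the cells in which N-cadherin junctions are best known in cortex, summed to 1293 to 1518 CPM in Csmd3-/- and 1412 to 1498 CPM in WT. Of these 10, 2 rose (by DESeq2, 3 rose and 1 fell), where 5.21% of all tested genes were higher and 2.53% lower by edgeR.

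Of the 6 type II genes, Cdh6, Cdh9, Cdh10 and Cdh12 had values below WT and lie on chromosome 15, as Csmd3 does. Cdh8 and Cdh11 lie on chromosome 8 and had values above WT, that of Cdh8 at a log2 fold change of only 0.013. None of the 6 passed the test, and their median log2 fold change was -0.16. With single libraries left out, Cdh8 ran from -0.089 to 0.14 and Cdh12 from -0.32 to 0.0053. Of all 19844 tested genes 9860 were below 0, and of the 729 on chromosome 15, 407. This split by chromosome was noticed after the values were seen and was not tested.

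Cdh9 and Cdh6 share a stretch of promoter. Promoter sequences (250 bases before to 50 after the start, RefSeq, GRCm38.p6) were at hand for 5 of the 10 genes, Cdh6, Cdh8, Cdh9, Cdh10 and Cdh12. The longest run of identical letters between any pair of the 5, on either strand, was 15 bases between Cdh6 and Cdh9. Counted from the RefSeq starts, it began 18 bases before that of Cdh6 (position 13173675) and 209 bases before that of Cdh9 (position 16728915, which lies inside the gene as GENCODE M21 places it). The windows of 30 bases around it are shown as the longest match among these promoters, with that run in capitals. The 6 letters at the left end of the windows match too:
Cdh6 (chr15:13173671-13173700, minus strand): ccacttcATTCACTTGCAAATCagtgtgtg
Cdh9 (chr15:16728699-16728728, plus strand): ccactttATTCACTTGCAAATCgccctgcc
Searched on both strands, ATTCACTTGCAAATC stood in 2 of 32851 promoters of that table (0.00609%), these same ones. The shorter TGCAAAT within it, part of the octamer motif known from POU transcription factors, stood in 4.02% of all promoters and, of the 5, in Cdh6 and Cdh9. The next longest run, GGGAGGGGGCGGG in Cdh6 and Cdh8, has 13 letters and stood in 0.377% of promoters. The shorter motif was bound to occur in Cdh6 and Cdh9, because it lies inside the run they share, so its hits add nothing to that match. A match describes these letters only.

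Cdh9 (chromosome 15, 16728756 to 16857094, plus strand), which in mouse hippocampus is known for synapses between dentate granule cells and CA3 neurons, was the lowest of the type II genes. It had 2.46, 3.52 and 2.98 CPM in Csmd3-/- libraries 1, 2 and 3, against 3.57, 4.19 and 5.06 CPM in WT libraries 1, 2 and 3. The groups stood apart by a narrow gap. The log2 fold change was -0.52 (SE 0.22, 95% interval -1.01 to -0.027), with an unadjusted p of 0.0408 and an adjusted p of 0.201 over all genes by edgeR. Its counts were 165 to 223 in Csmd3-/- and 213 to 290 in WT, so each library rests on few fragments. A non-coding gene on the opposite strand, Gm49127, shares 6.33% of its exon bases, and how strand was handled is not known here.

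Cdh6 (chromosome 15, 13028701 to 13173675, minus strand), also called K-cadherin for its expression in kidney, had 34.8, 35.0 and 35.0 CPM in Csmd3-/- and 38.0, 36.7 and 43.4 CPM in WT. Its groups did not overlap, and the 3 Csmd3-/- libraries were almost equal (-0.17 on the log2 scale, SE 0.091, adjusted p = 0.311). Cdh10 (chromosome 15, 18818947 to 19014236, plus strand), a brain cadherin, had 33.3, 31.1 and 29.6 CPM in Csmd3-/- and 33.4, 35.2 and 44.0 CPM in WT. The nearest libraries of both groups almost touched, at 33.3 and 33.4 CPM (log2 fold change -0.26, SE 0.12, adjusted p = 0.23). With WT library 3 left out, which was the highest, Cdh10 was at -0.13. Cdh12 (chromosome 15, 20449265 to 21589533, plus strand), also expressed mainly in brain, had 13.7, 13.9 and 11.4 CPM in Csmd3-/- and 15.3, 10.6 and 17.1 CPM in WT. WT library 2 lay below every Csmd3-/- library (log2 fold change -0.14, SE 0.18, adjusted p = 0.719), and without WT library 3 the value was 0.0053.

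Cdh8 (chromosome 8, 99024471 to 99416471, minus strand), whose transcripts mark parts of the forebrain and certain cortical areas, had 72.0, 67.4 and 65.0 CPM in Csmd3-/- and 58.7, 64.8 and 79.0 CPM in WT. The Csmd3-/- libraries lay within the WT range, with a log2 fold change of 0.013 (95% interval -0.23 to 0.26, adjusted p = 0.963). Cdh11 (chromosome 8, 102632095 to 102785642, minus strand), OB-cadherin, is known from mesenchyme and bone as well as from brain. It had 92.0, 88.0 and 84.8 CPM in Csmd3-/- and 87.3, 76.5 and 76.1 CPM in WT, and only WT library 1 reached into the Csmd3-/- range. The log2 fold change was 0.14 (SE 0.080, 95% interval -0.038 to 0.32, adjusted p = 0.348). The meningeal markers in the same libraries had a median of 5.13, but from a much lower start. In WT all 14 summed to 21.8 to 29.7 CPM, where Cdh11 alone was at 80.0 ± 6.37 CPM, so these log2 values cannot be compared directly. A meningeal part in Cdh11 was not tested.

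Cdh13 (chromosome 8, 118283733 to 119324921, plus strand), the GPI-anchored member, known from vessel walls and from neurons, had the narrowest interval. It had 139, 142 and 139 CPM in Csmd3-/- and 146, 133 and 132 CPM in WT. The Csmd3-/- libraries lay inside the WT range (log2 fold change 0.030, 95% interval -0.12 to 0.18, adjusted p = 0.847), so a level below 0.920 or above 1.13 times WT lies outside the interval.

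**Figure D4:**
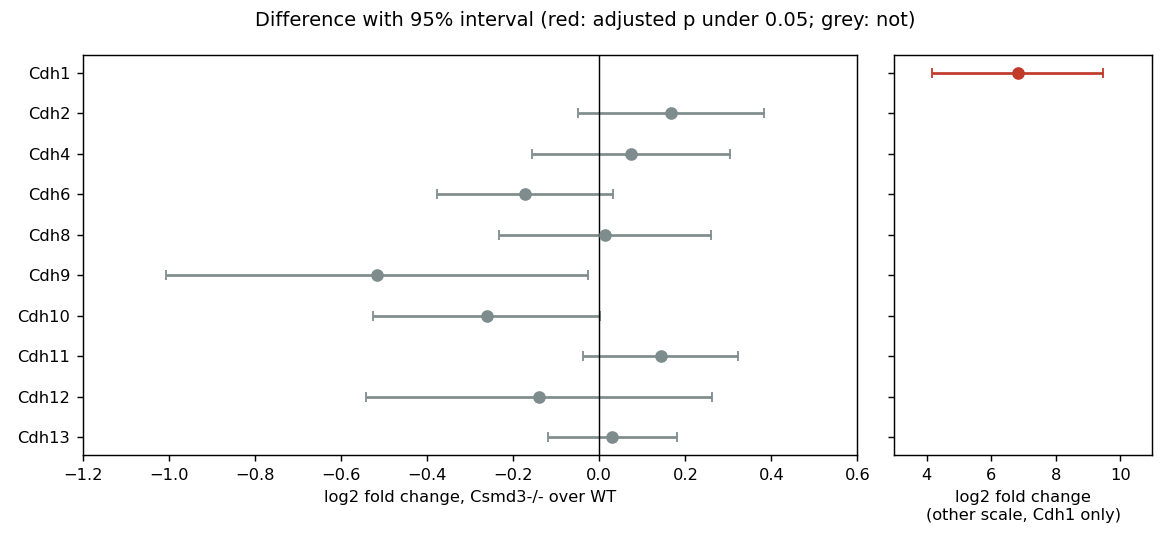
Log2 fold change of each cadherin, Csmd3-/- over WT, with its 95% interval, on 2 horizontal scales. Cdh1 stands alone at 6.83 on the right, and of the other 9 the interval of Cdh9 (-1.01 to -0.027) is the only one that leaves out 0 before adjustment.

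Marker lists for neural cell types and regions were set beside these values, and they moved in both directions. Their counts are to be read beside the shares over all tested genes, 5.21% higher and 2.53% lower by edgeR. DESeq2 called 1420 genes higher and 792 lower, of 31016 genes with any counts. The 12 genes of cortical area patterning summed to 1115 to 1158 CPM in Csmd3-/- and 1214 to 1421 CPM in WT, and 2 of 12 fell (3 by DESeq2). The 10 upper-layer neuron genes summed to 2281 to 2685 CPM in Csmd3-/- and 2320 to 2591 CPM in WT, and 2 of 10 fell. The 10 of deep-layer and subplate neurons summed to 1138 to 1384 CPM in Csmd3-/- and 1286 to 1370 CPM in WT, and 1 of the 9 tested fell. The 10 interneuron genes summed to 373 to 450 CPM in Csmd3-/- and 452 to 551 CPM in WT, and 2 of 10 fell. Of the progenitor lists, that of neurons held mostly rises and that of oligodendrocytes mostly falls. The 6 genes of intermediate progenitors, which divide to give cortical neurons, summed to 697 to 762 CPM in Csmd3-/- and 452 to 602 CPM in WT, and 4 rose (6 by DESeq2). The 6 of oligodendrocyte precursors summed to 162 to 185 CPM in Csmd3-/- and 215 to 273 CPM in WT, and 4 fell and 1 rose. Markers of neighbouring regions were also present. The 8 of striatum summed to 81.2 to 93.9 CPM in Csmd3-/- and 64.1 to 76.8 CPM in WT, and 2 rose and 1 fell. The 6 of thalamus summed to 78.5 to 84.4 CPM in Csmd3-/- and 59.7 to 73.7 CPM in WT, and 1 of the 5 tested rose. Gbx2 of thalamus was at 0 in all Csmd3-/- libraries and at 0, 8 and 0 counts in WT. In bulk tissue, fewer cells of a type and less transcript per cell cannot be told apart, and the part of cell make-up in the values of the type II genes was not tested.

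Among the 13 further cadherins of the Cdh series, 10 could be tested, 3 rose and 0 fell (median log2 fold change 0.038). By DESeq2 3 rose and 1, Cdh20, fell. Over all tested genes 5.21% were higher and 2.53% lower by edgeR, shares to set beside the lists below too. Cdh5, VE-cadherin of endothelial junctions, had 62.4, 52.7 and 60.7 CPM in Csmd3-/- libraries 1, 2 and 3, against 21.8, 18.1 and 18.9 CPM in WT libraries 1, 2 and 3. The groups were far apart (log2 fold change 1.58, SE 0.11, adjusted p = 4.09e-05). Over the 10 endothelial markers, which leave Cdh5 out, 5 rose with a median of 0.62 (by DESeq2, 8 rose and 1 fell), and their sum was 306 to 402 CPM in Csmd3-/- and 211 to 246 CPM in WT. Cdh17, LI-cadherin, named for liver and intestine, had 104, 76 and 76 counts in Csmd3-/- and 0 in every WT library. It was at least 19.9-fold higher, taking 3 fragments over the WT group as the floor (adjusted p = 0.000698).

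Cdh3, P-cadherin, lies beside Cdh1 on chromosome 8, with 46053 bases between them. It had 26, 39 and 95 counts in Csmd3-/- libraries 1, 2 and 3, against 4, 0 and 0 in WT libraries 1, 2 and 3. The order among Csmd3-/- libraries was that of Ttr and the reverse of Cdh1. The fold was 37.3 (95% interval 6.33 to 1512), and the call (adjusted p = 0.0219) was lost without WT library 2 (0.0799), Csmd3-/- library 2 (0.0507) or Csmd3-/- library 3 (0.14). Its fitted log2 value of 5.19 was 8.77 without WT library 1. Like Cdh1, Cdh17 and Cdh3 passed the filter through their Csmd3-/- counts. Of the cadherins of neural tissue in this list, Cdh20 (4.36 ± 0.289 CPM in Csmd3-/- and 6.70 ± 1.08 CPM in WT, log2 fold change -0.62, adjusted p = 0.0608 by edgeR and 0.036 by DESeq2) and Cdh18 (2.71 ± 0.241 CPM in Csmd3-/- and 4.07 ± 0.457 CPM in WT, -0.59, adjusted p = 0.104) did not pass by edgeR. Without WT library 3 the call of Cdh20 was gained (0.0342). Cdh15, M-cadherin, known from muscle, had 11, 4 and 36 counts in Csmd3-/- and 63, 73 and 47 in WT. Its groups stood apart on the lower side, as did those of 13.5% of all tested genes (log2 fold change -1.86, SE 0.72, adjusted p = 0.162). Cdh15 passed without Csmd3-/- library 3 (log2 fold change -3.19, adjusted p = 0.0319). Cdh15, Cdh18 and Cdh20 were chosen for naming after their values were seen. Of the rest tested, Cdh23 (0.88) and Cdh24 (0.16) had log2 fold changes above 0, Cdh7 (-0.079) and Cdh22 (-0.42) below, and none passed. Cdh16 was at 0 in all libraries, and Cdh19 at 4, 4 and 0 counts in Csmd3-/- and 0 in every WT library.

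The catenins that join cadherins to actin differed by member. Of 9 tested genes 2 rose and 0 fell (median log2 fold change 0.031). Ctnna1, the alpha-catenin of epithelia and most other tissues, had 116, 86.6 and 118 CPM in Csmd3-/- against 54.1, 59.6 and 56.7 CPM in WT (0.92, SE 0.12, adjusted p = 0.00197). Vcl, vinculin, which binds stretched alpha-catenin, had 25.2, 21.3 and 27.4 CPM in Csmd3-/- against 12.6, 14.01 and 14.8 CPM in WT (0.84, SE 0.13, adjusted p = 0.00476). It shares 25.5% of its exon bases with Ap3m1 on the opposite strand, which makes its counts less certain. Neither call was lost when 1 library at a time was left out, and that of Vcl was lost without Csmd3-/- libraries 2 and 3 together (adjusted p = 0.0749). The neural alpha-catenin gene Ctnna2 was at 247 ± 6.03 CPM in Csmd3-/- and 269 ± 13.7 CPM in WT (-0.12, adjusted p = 0.319). Beta-catenin (Ctnnb1) was at 892 ± 41.3 CPM in Csmd3-/- and 858 ± 60.9 CPM in WT (0.057, adjusted p = 0.723), and p120-catenin (Ctnnd1) at 214 ± 4.22 CPM in Csmd3-/- and 187 ± 6.30 CPM in WT (0.20, adjusted p = 0.091). Ctnnd1 shares 61.2% of its exon bases with Gm28635, a protein-coding gene on the same strand, and Ctnnb1 shares 14.6% with Ulk4 on the opposite strand, so both are uncertain in level. Jup, plakoglobin, which can take the place of beta-catenin at junctions, had 57.8, 51.9 and 53.7 CPM in Csmd3-/- against 69.2, 70.2 and 60.8 CPM in WT. Its groups stood apart on the lower side, as did those of 13.5% of all tested genes (-0.29, SE 0.086, adjusted p = 0.0731). Without WT library 3, Ctnnd1 passed as higher (adjusted p = 0.0498) and Jup as lower (0.0257).

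Nectins are immunoglobulin-type adhesion proteins that meet cadherin junctions through afadin. Of these 5 genes, Afdn rose to 275 ± 26.9 CPM in Csmd3-/-, against 205 ± 24.5 CPM in WT (log2 fold change 0.42, SE 0.10, adjusted p = 0.037). The 4 nectin genes did not pass, although Nectin1 did so as lower without WT library 3 (-0.46, adjusted p = 0.0207, against -0.35 and 0.119 with it). The list's median was -0.26. The call of Afdn was lost without any single library but WT 1 (adjusted p = 0.0518 to 0.136). None of 9 genes for the processing and turnover of cadherins passed (0 by edgeR and 0 by DESeq2, median 0.048), and at an unadjusted p under 0.05 there was 1, Adam10. Among them were the propeptide protease gene Furin (59.6 ± 0.656 CPM in Csmd3-/- and 57.0 ± 5.82 CPM in WT) and the sheddase gene Adam10 (138 ± 3.88 CPM in Csmd3-/- and 124 ± 6.17 CPM in WT).

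Transcription factors that are known to repress Cdh1 were higher in part. Of 7 genes 2 rose and 0 fell (median log2 fold change 1.66), and by DESeq2 3 rose. Twist1 had 195, 121 and 138 counts in Csmd3-/- and 10, 8 and 12 in WT (3.80, SE 0.35, adjusted p = 0.000245). With so few WT counts, Twist1 passed the filter on low counts through its Csmd3-/- counts, as Twist2 and Snai2 did. Snai1 had 257, 93 and 125 counts in Csmd3-/- and 41, 36 and 38 in WT (1.92, SE 0.37, adjusted p = 0.0139), and its call was lost without WT library 1 (0.054), WT library 2 (0.0609) or Csmd3-/- library 1 (0.0593). Snai1 and Cdh1 were both higher in each Csmd3-/- library than in any WT library, and both were highest in Csmd3-/- library 1. Csmd3-/- libraries 2 and 3 stood in opposite order for Snai1 and Cdh1. Bulk tissue does not show whether the same cells held both transcripts. Twist2, the third by DESeq2, had 69, 27 and 15 counts in Csmd3-/- and 5, 0 and 0 in WT (adjusted p = 0.0559 by edgeR and 0.00566 by DESeq2). It shares 46.5% of its exon bases with Gm29100 on the opposite strand. Without WT library 1 Twist2 passed (0.0423), and without WT library 3 Snai2 did (log2 fold change 2.55, adjusted p = 0.0268, against 1.66 and 0.143 with it). The much more abundant Zeb2, a factor of cortical neurons, was at 468 ± 14.2 CPM in Csmd3-/- and 425 ± 100.004 CPM in WT (0.14, adjusted p = 0.692). Twist1 and Snai1 are also known from mesenchyme, and the meningeal markers given above moved with them. Their part was not tested.

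**Figure D5:**
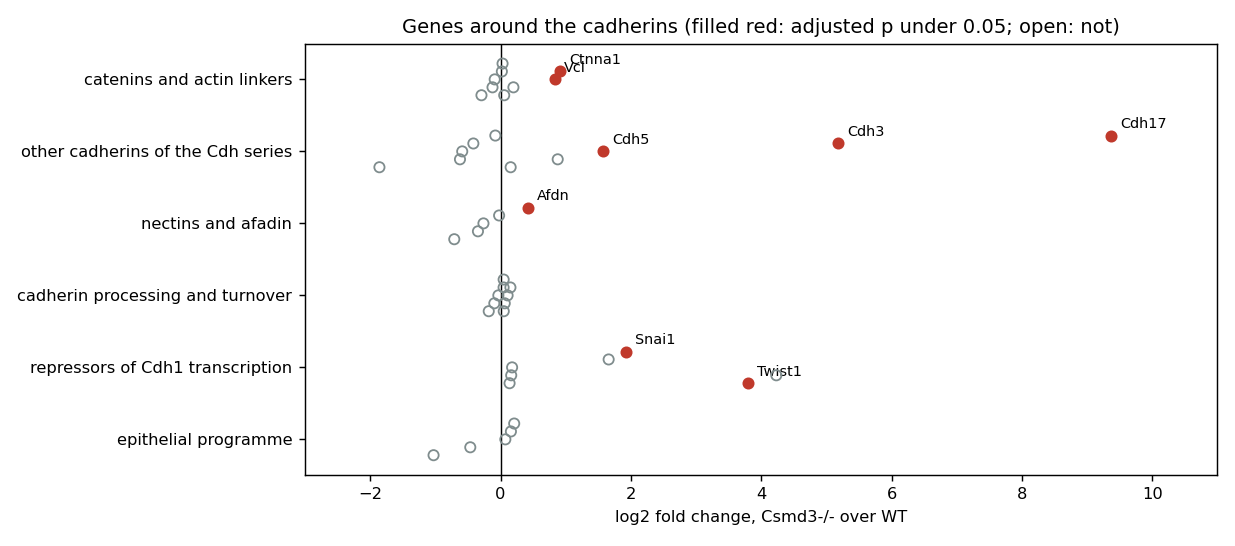
Log2 fold change, Csmd3-/- over WT, of each tested gene in 6 lists around the cadherins, one row per list, with genes past an adjusted p of 0.05 filled and named. Rises stand in 4 adhesion and repressor rows, led by Cdh17 at a fitted 9.36 that depends on edgeR's constant because WT had 0 counts, while the processing and epithelial rows hold 0 filled points.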

How the data were processed

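Per the file headers, the authors deposited a table of gene counts, 1 column per library. The values are whole numbers and were treated as estimated counts, because the value 4 was far more common than 3 or 5 (1298 genes in WT library 1, against 492 and 318), so 1 fragment adds about 4. Per the submitters' processing notes, FastQC 0.11.9, Trim Galore 0.4.4, HISAT2 2.0.5, StringTie 1.3.4 and mm10 were used, with no roles named. Counting program, annotation release and strand handling: not given in the sources used here. Names and coordinates came from GENCODE M21 on the same assembly (55141 of 55401 rows named, 54349 by identical identifier, and at most 0.0238% of counts in unnamed rows).

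Genes kept by filterByExpr were scaled by TMM and compared by the robust quasi-likelihood F-test of edgeR 4.0.16 in R 4.3.3, Csmd3-/- over WT, 3 libraries each. P-values were adjusted by Benjamini-Hochberg over 19844 genes, with a threshold of 0.05. SE is the size of the log2 fold change over the root of F, and intervals are 95%. Where WT held 1 to 12 deposited counts in all, the fold was taken from summed counts and its interval from a binomial on fragments. Fragments were counts divided by 4 and not always whole, so the intervals are approximate. These intervals, and the floor of 3 fragments, cover counting error only: reads were not tied to single molecules. Library pairs within a group differed by more than sampling noise on counts divided by 4 (chi-square per gene 11.8 to 17.5), so none was counted as a repeat sequencing of another. This does not show that they came from separate embryos.

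The cadherins and the 22 lists were chosen with earlier results of these data known. Named were all 10 cadherins, Csmd3, Ttr, up to 4 members past the threshold from each pathway list by size of change, and genes of the lists at 0 in every library of a genotype. Other names serve as examples and were chosen with their values in view. Alternatives were DESeq2 1.42.0, scaling by RLE or upper quartile, no filter or a minimum CPM of 1 in 3 libraries, a replicate block, counts divided by 4, each library left out, and Csmd3-/- libraries 2 and 3 left out. Protein sequences were not used here.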

Additional observations from a re-analysis of the deposited data

How the results depend on the processing

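For the 9 cadherins other than Cdh1, 0 of 126 alternative fits gave an adjusted p under 0.05 (lowest 0.11), and 121 kept the sign of the log2 fold change. The 5 that turned it were small values with a library left out: over those fits Cdh8 ran from -0.089 to 0.14, Cdh12 from -0.32 to 0.0053 and Cdh4 from -0.027 to 0.16. The count of cadherins called higher was 1, or 0 without a filter on low counts (Cdh1 adjusted p = 0.0504), with the replicate block (0.0757), and without Csmd3-/- libraries 2 and 3 together (0.225); leaving out single libraries gave 0 to 1. Cdh1 stayed past the threshold in 8 of 14 alternatives, DESeq2 and counts divided by 4 included. Its log2 value lay between 6.24 and 11.68 with a library left out. The cause was not tested.

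Over all genes, 1033 were higher and 503 lower. Leaving out single libraries gave 472 to 1402 higher and 137 to 956 lower genes. Without Csmd3-/- libraries 2 and 3 the counts were 262 and 43, a fit that assumes the lone Csmd3-/- library to vary like WT. DESeq2 called 1420 higher and 792 lower. With the replicate block 686 were higher and 255 lower, and Cdh3 lost its call (adjusted p = 0.0811). Same-numbered libraries did not deviate together (correlations 0.0283, -0.00263 and 0.00163), and not every library correlated best with its own number, so the numbers were not taken as pairs. Without Csmd3-/- libraries 2 and 3 together, Ctnna1, Cdh5, Cdh17, Snai1 and Twist1 kept their calls (adjusted p = 0.00131 to 0.0159), while Vcl (0.0749), Afdn (0.189) and Cdh3 (0.586) lost theirs. Depth limits Cdh1, Cdh3 and Cdh17 most, at 0 to 2.5 fragments in WT.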

Other observations

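The cadherins of chromosome 15 lie in a row on the same chromosome as the disrupted gene. Cdh6, Cdh9, Cdh10, Cdh12 and Cdh18 span 13028701 to 23474418 on that chromosome in mm10, and 24106219 bases separate the end of Cdh18 from Csmd3. All 5 had log2 fold changes below 0, with a median of -0.26, and 0 passed the threshold. The 4 other tested genes in that span were also below 0 (median -0.37, 0 past the threshold). Over all 729 tested genes of chromosome 15, 407 were below 0 and the median was -0.048. This grouping by position was noticed after the values were seen and carries no test. On chromosome 8 the cadherins went both ways: Cdh1, Cdh3, Cdh5, Cdh8, Cdh11 and Cdh13 had values above 0 and Cdh15 below.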
